A study of Mus musculus with 10 samples.

Results

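Plantaris muscles of male C57BL/6 mice after 3 d of overload were compared with plantaris muscles that had not been overloaded. The overloaded group holds the 2 pools whose titles give a 3 day control and whose source is synergist ablation with no PDGF inhibitor (PDGF is platelet-derived growth factor), and the comparison group holds the 2 pools titled as controls with no overload, also without inhibitor. These are 4 of the 10 pools measured. In synergist ablation the muscles that share the work of the plantaris are removed, so that the plantaris carries their load. Each pool holds equal amounts of RNA of 4 muscles and was read on 1 Affymetrix Mouse Gene 2.1 ST array. The other 6 pools are 2 each of 3 d overload with the inhibitor, 10 d overload and 10 d overload with the inhibitor, and they enter here through the shared estimate of spread. The inhibitor is not named and no age is given in the labels. The labels do not say whether the muscles without overload had a sham operation, so surgery and load cannot be told apart.

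An overloaded muscle grows by adding protein to its fibres and by fusing muscle stem cells into them. Immune cells enter in the first days, the tissue around the fibres is rebuilt, and genes of the embryonic and the denervated fibre can return. A fibre also sets how much fuel it burns in its mitochondria, how it handles calcium and which receptors and channels stand in its membrane. Genes of cell division, macrophages and the extracellular matrix are the best known part of the early response. The account below is of the other functions.

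Levels are the authors' log2 values, on which 1 unit is a doubling of the signal. A change is the mean of the 3 d overload pools minus the mean of the pools without overload in a limma fit over all 10 arrays, and the value after ± is its standard error. Calls were made where the p adjusted by the Benjamini-Hochberg method was under 0.05. Of 22180 genes, 3881 were called changed (17.5%), of which 2066 were higher (9.31% of all genes) and 1815 lower (8.18%). With every array set to a common median the split turned to 1567 higher and 3295 lower, since the 3 d overload arrays had medians 0.19 above those without overload and every change was then 0.19 smaller. The calls of 1699 genes (7.66%) were kept when each of the 10 arrays was left out in turn, 1040 of them higher (4.69%) and 659 lower (2.97%). Fewer genes were called when an array of this comparison was left out, 2146 without 3 d overload pool 1, 2582 without 3 d overload pool 2, 2427 without no-overload pool 1 and 2636 without no-overload pool 2. Genes given below as having risen or fallen are among those 1699 unless another value is given beside them, and in each of them both 3 d overload pools lay on the same side of both pools without overload. That lack of overlap was a condition for naming most of these genes. Where it is given below, it describes them and adds no support. The median change of all genes was -0.04.

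The tissue carried the markers of skeletal muscle fibres at like levels. The mean over 8 such genes was 11.55 and 11.48 in the 3 d overload pools, against 11.62 and 11.64 in the pools without overload. These means lay near the top of the scale, whose highest value was 12.71, and a change can be missed there. The mean of 10 macrophage markers was 7.52 and 7.24 in the 3 d overload pools, against 3.96 and 4.37 in the pools without overload. The mean of 8 fibroblast markers was 7.33 and 7.17 in the 3 d overload pools, against 6.71 and 6.91 in the pools without overload, and that of 6 T cell markers was 1.42 and 1.60 in the 3 d overload pools, against 1.53 and 1.39 in the pools without overload. Overloaded pool 1 stood apart. The mean of 8 neutrophil markers was 4.52 and 2.52 in the 3 d overload pools, against 2.29 and 2.26 in the pools without overload. The mean of 9 genes of granulocyte precursors was 4.63 and 1.43 in the 3 d overload pools, against 1.62 and 1.18 in the pools without overload, and Elane, a protease of neutrophil precursors, was at 5.21 and 1.37 in the 3 d overload pools, against 1.33 and 1.15 in the pools without overload. The same pool held Ibsp, a protein of bone, at 6.18 and 1.28 (pools 1 and 2), against 1.36 and 1.30 without overload. Across genes, the overloaded pools correlated at 0.991 with each other and the pools without overload at 0.99, while values between the groups were 0.963 to 0.969. In whole muscle, fewer cells of a type and less RNA per cell cannot be told apart. The labels do not pair the pools, and p-values measure the spread between pools of 4 muscles, not between mice.

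**Figure D1:**
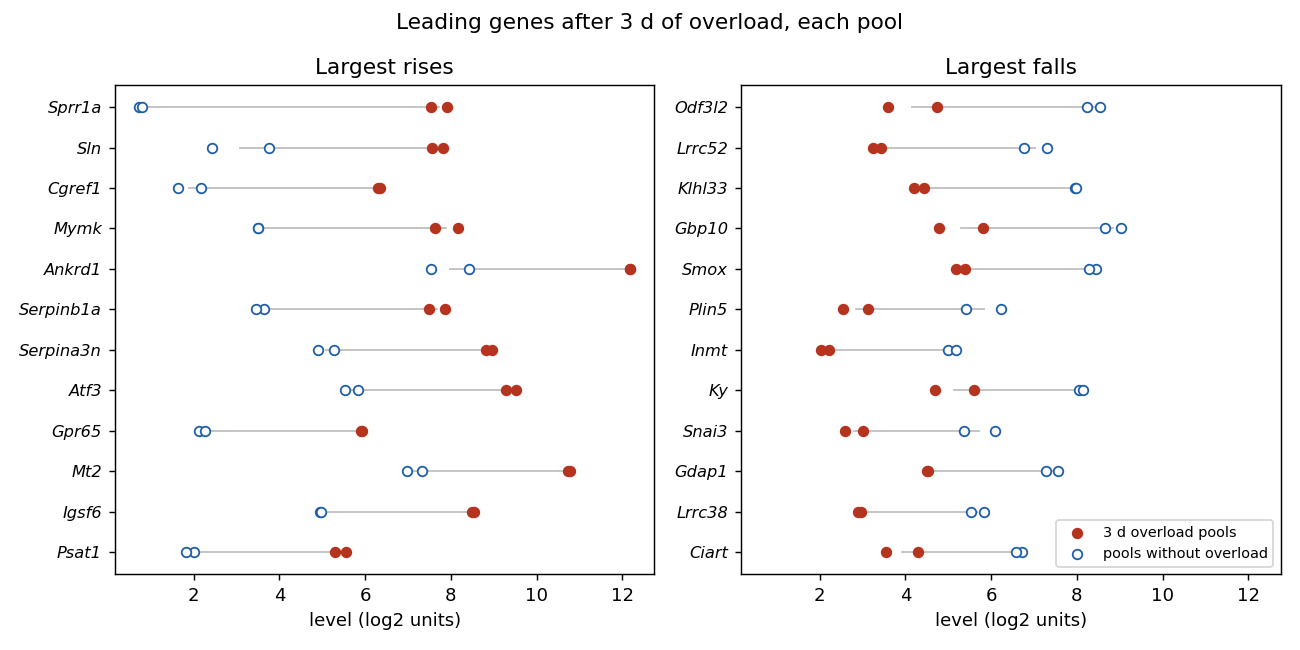
Level in each pool (log2 units, horizontal axis) of the 12 genes with the largest rises (left) and the 12 with the largest falls (right) outside the cell division, macrophage and matrix lists. Filled points are the 2 pools of 3 d overload, open points the 2 pools without overload, and grey lines join the group means. In all 24 genes the groups are apart, which was a condition for choosing them.

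Sprr1a, a small proline-rich protein of the cornified envelope of skin that is also induced in injured nerve, had the largest rise outside those lists among genes whose calls were kept. Its level was 7.53 and 7.91 in the 3 d overload pools, against 0.73 and 0.79 in the pools without overload. Both overloaded pools were high and both others were near the bottom of the scale, a difference of 6.96 ± 0.33 (adjusted p = 2.83e-05). Its promoter, taken from RefSeq and written 5′ to 3′ along the gene's strand, as are those that follow (GRCm38.p6, minus strand, chr3:92485832-92486131), is shown because it holds 2 copies of the AP-1 motif TGANTCA, which Fos, Jun and Atf family proteins can bind and which stands in capitals. The motif, sought on both strands, occurs in 8.42% of 16990 promoters of the same 300 bases, and a match is a description only.
Sprr1a: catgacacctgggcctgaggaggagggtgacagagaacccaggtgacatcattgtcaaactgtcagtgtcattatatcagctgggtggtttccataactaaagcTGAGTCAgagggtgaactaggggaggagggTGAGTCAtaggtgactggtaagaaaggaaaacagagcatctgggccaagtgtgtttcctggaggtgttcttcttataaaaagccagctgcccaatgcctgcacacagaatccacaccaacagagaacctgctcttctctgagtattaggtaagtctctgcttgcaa

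Sarcolipin (Sln), a small peptide that slows the calcium pump of the sarcoplasmic reticulum, was at 7.57 and 7.82 in the 3 d overload pools, against 2.43 and 3.75 in the pools without overload. Its pools without overload differed by more than a unit from each other, yet both lay far below the overloaded ones, and the rise was 4.61 ± 0.38. Cgref1, a secreted protein with calcium-binding EF hands, was at 6.34 and 6.29 in the 3 d overload pools, against 2.16 and 1.63 in the pools without overload. Myomaker (Mymk), the membrane protein that myoblasts need for fusion, was at 7.62 and 8.17 in the 3 d overload pools, against 3.49 and 3.49 in the pools without overload. In both genes the group means were more than 4 units apart, with changes of 4.42 and 4.41. Ankrd1, a titin-binding protein of the I-band that responds to strain, was at 12.17 and 12.18 in the 3 d overload pools, against 7.54 and 8.43 in the pools without overload, and in the overloaded pools it lay near the top of the scale. Atf3, a transcription factor of the stress response, was at 9.53 and 9.28 in the 3 d overload pools, against 5.52 and 5.83 in the pools without overload. Psat1, the transaminase of serine synthesis, was at 5.56 and 5.30 in the 3 d overload pools, against 2.0 and 1.83 in the pools without overload. The metal-binding protein Mt2 was at 10.73 and 10.78 in the 3 d overload pools, against 6.98 and 7.32 in the pools without overload. The groups of these genes did not overlap, and the changes were 4.19 for Ankrd1, 3.73 for Atf3, 3.51 for Psat1 and 3.61 for Mt2. The protease inhibitors Serpinb1a and Serpina3n rose by 4.14 and 3.79. The remaining leading rises were in Gpr65 (3.72), a proton-sensing receptor of leukocytes, and Igsf6 (3.57), an immunoglobulin superfamily protein of myeloid cells, beside the macrophage markers given above.

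The largest fall was in Odf3l2. The gene, named for its likeness to a protein of the sperm tail, was at 3.59 and 4.74 in the 3 d overload pools, against 8.55 and 8.24 in the pools without overload. The overloaded pools differed by about a unit and both lay well below the others (-4.23 ± 0.37, adjusted p = 0.000268). Lrrc52, an auxiliary subunit of calcium-activated potassium channels, was at 3.42 and 3.24 in the 3 d overload pools, against 7.31 and 6.76 in the pools without overload. Its relative Lrrc38 was at 2.90 and 2.96 in the 3 d overload pools, against 5.83 and 5.53 in the pools without overload. Both genes were lower in both overloaded pools, with changes of -3.71 and -2.75. Klhl33, a Kelch protein, was at 4.20 and 4.44 in the 3 d overload pools, against 7.96 and 7.99 in the pools without overload. Smox, the spermine oxidase, was at 5.19 and 5.38 in the 3 d overload pools, against 8.44 and 8.28 in the pools without overload. Plin5, which coats lipid droplets next to mitochondria, was at 3.13 and 2.55 in the 3 d overload pools, against 6.24 and 5.42 in the pools without overload. All these genes had both overloaded pools below both pools without overload. Ky, a protein whose loss causes kyphoscoliosis and muscle weakness in mice, was at 4.69 and 5.59 in the 3 d overload pools, against 8.04 and 8.15 in the pools without overload. Inmt, a methyltransferase of small amines, fell by 2.96, the Snail family transcription factor Snai3 fell by 2.91 and Gdap1, a protein of the outer mitochondrial membrane, fell by 2.90. Gbp10, an interferon-inducible GTPase, fell by 3.55, but it belongs to a family of near-identical copies, so that its probes may read relatives as well. Ciart, a repressor of the circadian clock, is described with its partners below. Of the 24 leading genes, 19 also differed between 10 d and 3 d of overload, a comparison in which 6.08% of all genes were called. These genes were picked for extreme values in the same 3 d pools, which favours such a difference in advance. The share of all genes is therefore no fair measure for them.

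**Figure D2:**
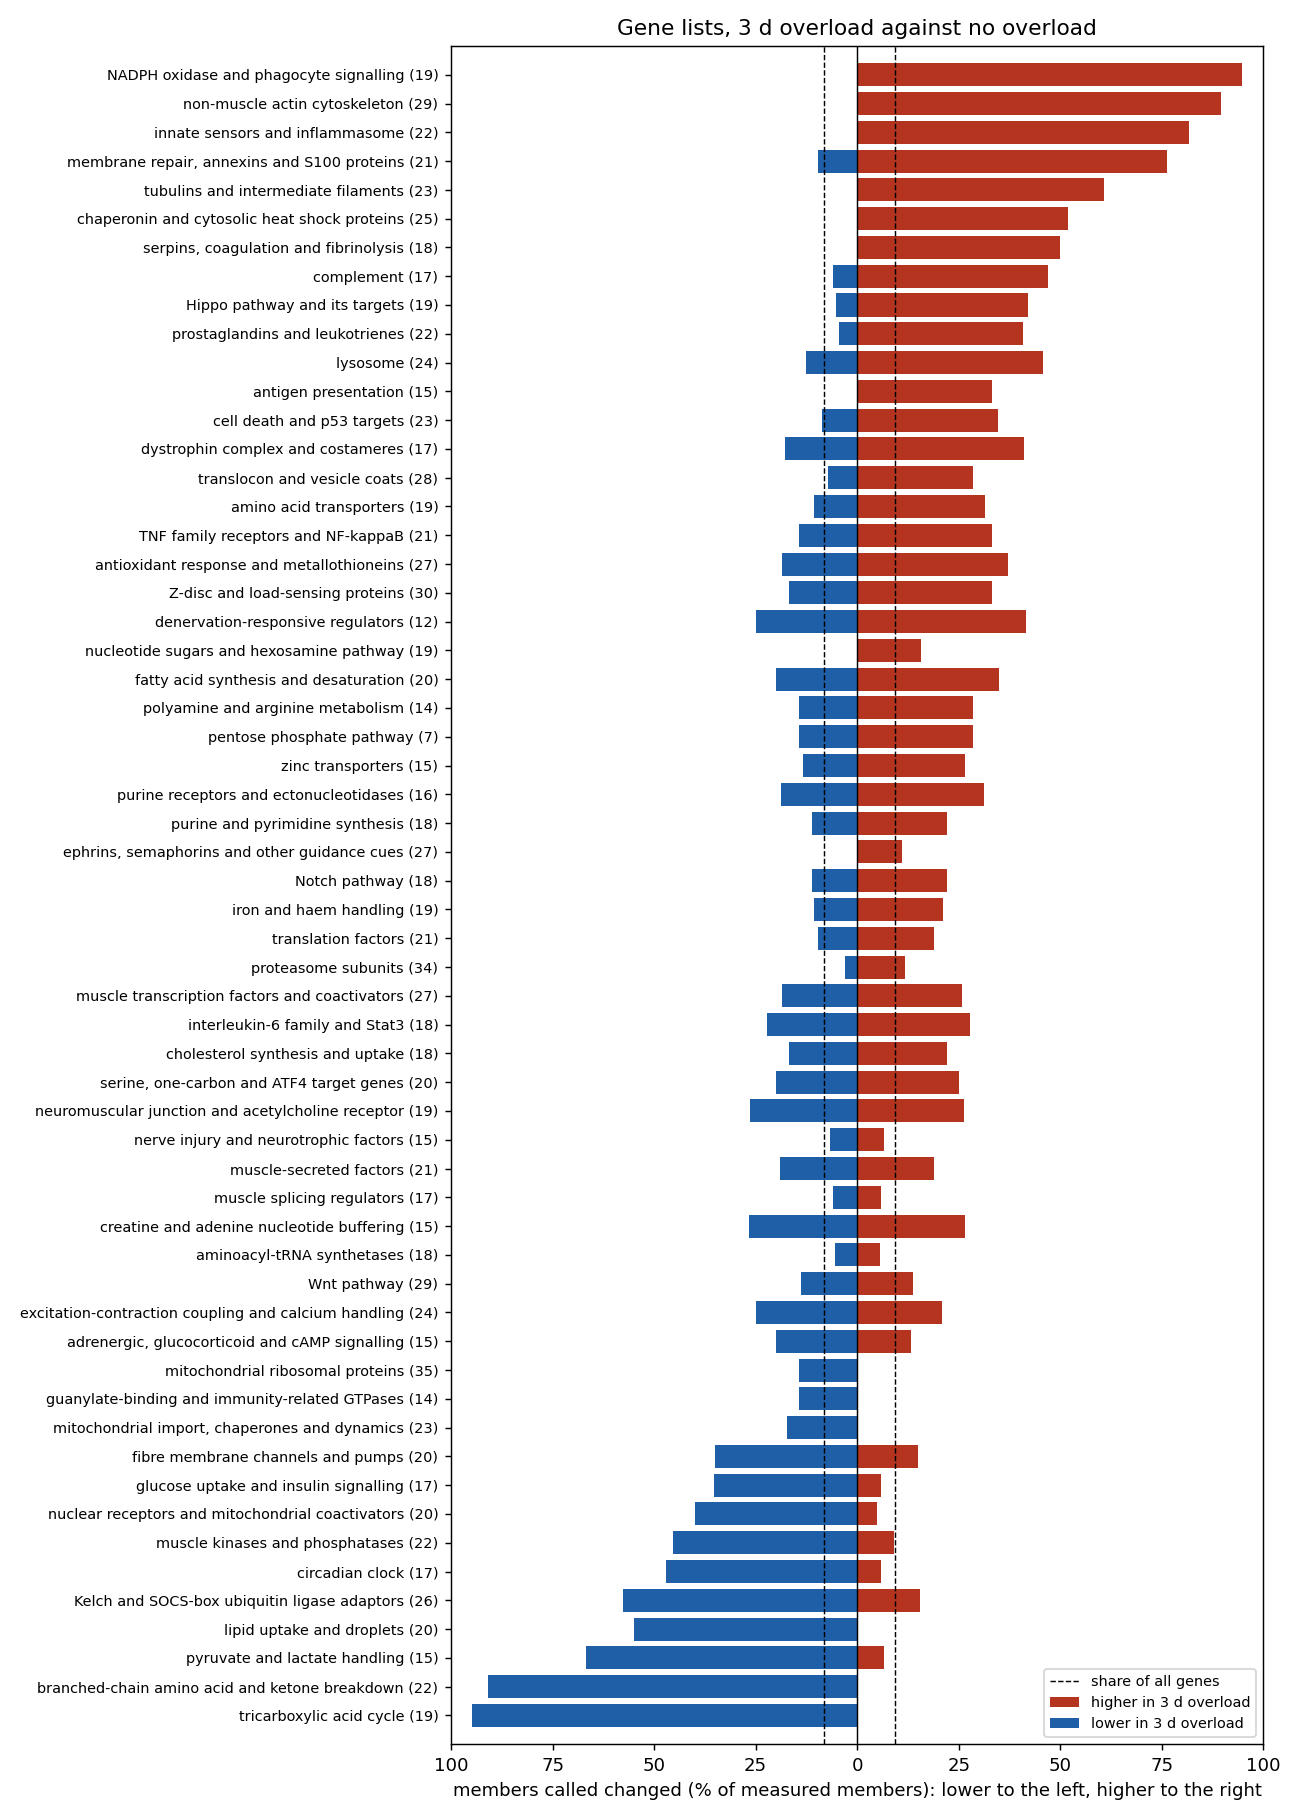
Percent of the measured members of 58 gene lists called higher (bars to the right) or lower (bars to the left) after 3 d of overload than without overload, with the number of measured members in brackets. Dashed lines mark the shares of all genes, 9.31% higher and 8.18% lower. The lists of phagocyte signalling and non-muscle actin reach furthest to the right, those of the tricarboxylic acid cycle and of branched-chain amino acid breakdown furthest to the left.

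The 58 lists hold 1178 measured genes, of which 543 were called, while 17.5% of all genes were called. The lists were chosen with earlier results of these data known, so their counts are no test against that share. In the counts that follow, "kept" means that the call held without each array in turn.

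The proteins that anchor the contractile filaments moved in both directions. Of 30 measured genes of the Z-disc and its load-sensing proteins, 10 were higher and 5 lower (8 and 2 of them kept), with a median change of 0.25. Beside Ankrd1, rises were seen in Xirp1 (2.20), an actin-binding protein of remodelling sarcomeres, Csrp3 (1.74), the muscle LIM protein of the stretch response, and the transcriptional cofactor Lmcd1 (1.42). Xirp1 was at 10.16 and 10.15 in the 3 d overload pools, against 7.65 and 8.26 in the pools without overload, with the groups apart. Synemin (Synm), an intermediate filament protein, fell by 0.76 and Myoz1, a calcineurin-binding protein of fast fibres, fell by 0.80. At the costameres, which tie the Z-disc to the membrane, 7 of 17 genes were higher and 3 lower (4 and 2 of them kept). The syntrophin Sntb1 rose by 2.48, caveolin Cav3 by 1.28, talin (Tln1) by 0.90 and vinculin (Vcl) by 0.80, whereas neuronal nitric oxide synthase (Nos1), which syntrophin holds at the membrane, fell by 1.75 and alpha-sarcoglycan (Sgca) fell by 0.75. The median of that list was 0.14 and turned to -0.05 with arrays at a common median.

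Proteins that reseal a torn membrane were mostly higher. Of 21 annexins, S100 proteins and repair proteins, 16 were higher and 2 lower (12 and 0 of them kept), with a median of 1.10. Annexin Anxa2 was at 8.42 and 8.21 in the 3 d overload pools, against 5.85 and 6.02 in the pools without overload, a rise of 2.39. Myoferlin (Myof), a ferlin of fusing myoblasts and healing membranes, rose by 1.94, Anxa1 by 1.69 and S100a6 by 1.67. Macrophages also express annexins and S100 proteins, and the part of the macrophage rise in this list was not tested.

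Calcium handling, channels and receptors of the fibre membrane changed gene by gene. Among 24 genes of excitation and calcium handling, 5 were higher and 6 lower (3 and 4 of them kept). With arrays at a common median the count was 3 higher and 13 lower. Beside sarcolipin, Rrad, a small GTPase that restrains calcium channels, rose by 2.84 and the cardiac and slow-fibre calsequestrin Casq2 by 1.91. Myoregulin (Mrln), a micropeptide that like sarcolipin slows the calcium pump, fell by 1.84, the histidine-rich calcium-binding protein Hrc fell by 1.05, the store sensor Stim1 fell by 0.88 and parvalbumin (Pvalb), the calcium buffer of fast fibres, fell by 0.80. Of 20 membrane channels and pumps, 3 were higher and 7 lower (3 and 5 of them kept), with a median of -0.54. Aquaporin-4 (Aqp4) was at 3.32 and 4.05 in the 3 d overload pools, against 6.28 and 6.14 in the pools without overload. Both overloaded pools were low, a change of -2.52. The chloride channel Clcn1, which steadies the resting fibre, fell by 1.28 and the inward rectifier Kcnj2 fell by 1.32. The pump regulator Fxyd5 (2.11), the calcium-activated potassium channel Kcnn3 (1.57) and Atp1b4 (1.5), a relative of sodium pump subunits, rose.

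At the neuromuscular junction, 5 of 19 genes were higher and 5 lower (4 and 4 of them kept). The acetylcholine receptor carries a gamma subunit in the embryo and an epsilon subunit in the adult. The embryonic subunit Chrng was at 4.19 and 4.74 in the 3 d overload pools, against 1.96 and 1.74 in the pools without overload. The adult subunit Chrne was at 4.71 and 4.96 in the 3 d overload pools, against 6.29 and 6.66 in the pools without overload. Neither gene's groups overlapped, and the changes ran in opposite directions, 2.61 ± 0.39 (adjusted p = 0.00261) for Chrng and -1.64 ± 0.16 (adjusted p = 0.000475) for Chrne. The alpha subunit Chrna1 rose by 1.22, the adhesion protein Ncam1 by 1.78 and the growth factor Nrg1 by 1.35. Acetylcholinesterase (Ache) fell by 1.24, the agrin receptor Lrp4 fell by 1.07 and Ufsp1, a protease of the ubiquitin-like modifier Ufm1, fell by 1.47. Of 12 regulators known from denervated muscle, 5 were higher and 3 lower (3 and 2 of them kept). Myogenin (Myog), a transcription factor of muscle differentiation, was at 7.02 and 7.25 in the 3 d overload pools, against 3.62 and 4.02 in the pools without overload. Runx1, a transcription factor that protects denervated fibres, was at 8.35 and 8.21 in the 3 d overload pools, against 4.52 and 5.49 in the pools without overload. Both rose, by 3.32 and 3.27, while the atrophy-linked ubiquitin ligase Fbxo32 fell by 1.53 and the orphan receptor Nr4a1 fell by 1.34.

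Falls outnumbered rises among muscle's adaptors for ubiquitin ligases, with 4 of 26 genes higher and 15 lower (3 and 9 of them kept), Kelch and SOCS-box proteins among them, and a median of -0.80. Besides Klhl33, falls were seen in Klhl38 (-1.78), Asb18 (-1.74) and Asb14 (-1.72). Klhl40 and Klhl41, which stabilise thin-filament proteins, rose by 1.75 and 0.80, as did Asb5 (0.88). Klhl40 was at 8.36 and 8.32 in the 3 d overload pools, against 6.38 and 6.79 in the pools without overload. Of 22 muscle kinases and phosphatases, 2 were higher and 10 lower (1 and 3 of them kept), with falls in the myosin light chain kinases Mylk4 (-1.78) and Mylk2 (-1.28) and the kinase Map2k6 (-1.38) and a rise in Alpk2 (0.98; a second, dimmer probe set gave 0.57). The list of muscle transcription factors had 7 of 27 genes higher and 5 lower (3 and 3 of them kept). At a common array median it had 6 genes higher and 8 lower. Klf5 rose by 1.43 and Sox4 by 1.17, though a second probe set of Sox4 gave 0.04. Klf15, which promotes lipid and amino acid use, fell by 1.58, the limb factor Tbx15 fell by 1.22 and the homeobox factor Six4 fell by 0.95. Among 17 splicing regulators, 1 was higher and 1 lower (1 and 0 of them kept), below the shares of all genes (9.31% higher and 8.18% lower). The rise was in Ptbp1 (1.15), a repressor of muscle and neuronal exons.

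**Figure D3:**
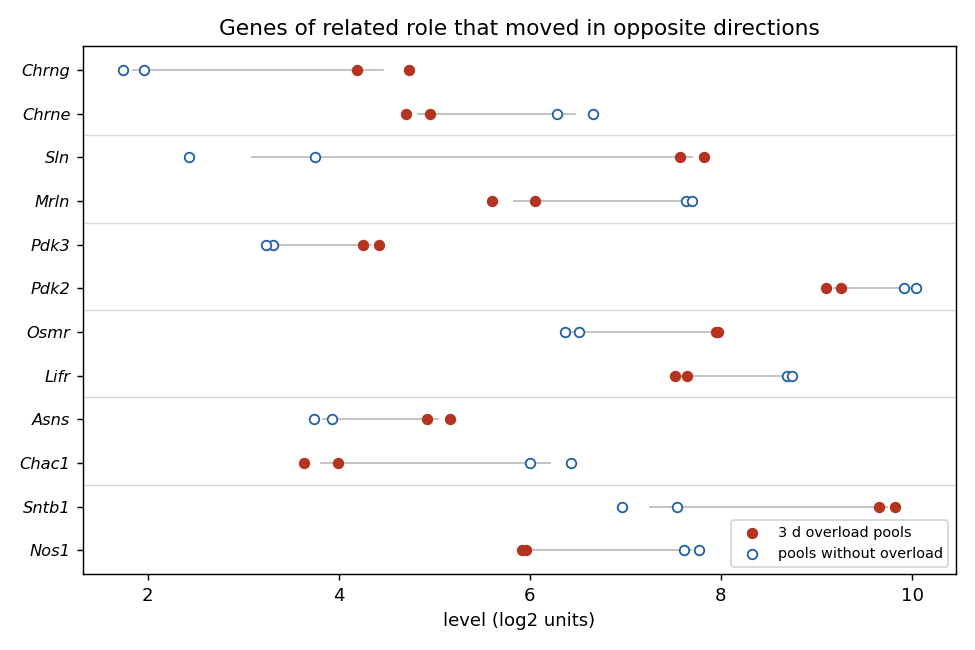
Level in each pool (log2 units, horizontal axis) of 6 pairs of genes with related roles, the raised gene above the lowered one in each pair. Filled points are the 2 pools of 3 d overload and open points the 2 pools without overload. In every pair both genes have their groups apart. The pairs were chosen after their values were seen, and levels of different genes are not comparable.

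Genes of the cytoskeleton outside the sarcomere were mostly higher. Of 29 genes of non-muscle actin, its nucleators and its myosins, 26 were higher and 0 lower (17 and 0 of them kept), against 9.31% of all genes higher. The median change was 1.05, against -0.04 for all genes. Diaph3, a formin that grows actin filaments, was at 5.67 and 5.82 in the 3 d overload pools, against 2.67 and 2.30 in the pools without overload. Its groups were apart by 3.26. Cofilin (Cfl1), which cuts filaments, rose by 1.57, the crosslinker Actn1 by 1.56 and the non-muscle myosin Myh10 by 1.52. Of 23 tubulins, lamins and intermediate filaments, 14 were higher and 0 lower (10 and 0 of them kept), with a median of 1.15. Tubb6, a beta tubulin of regenerating muscle, was at 9.63 and 9.40 in the 3 d overload pools, against 5.95 and 7.06 in the pools without overload. Nestin (Nes), the intermediate filament of young fibres and progenitor cells, was at 7.64 and 7.69 in the 3 d overload pools, against 5.02 and 5.09 in the pools without overload. The changes were 3.01 for Tubb6, 2.61 for Nes, 2.65 for Tubb2a and 1.77 for Tuba1c, whose second probe set gave 0.34. Tubulin genes are near copies of each other, so a probe set may read several. The part of entering cells in these rises was not tested.

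**Figure D4:**
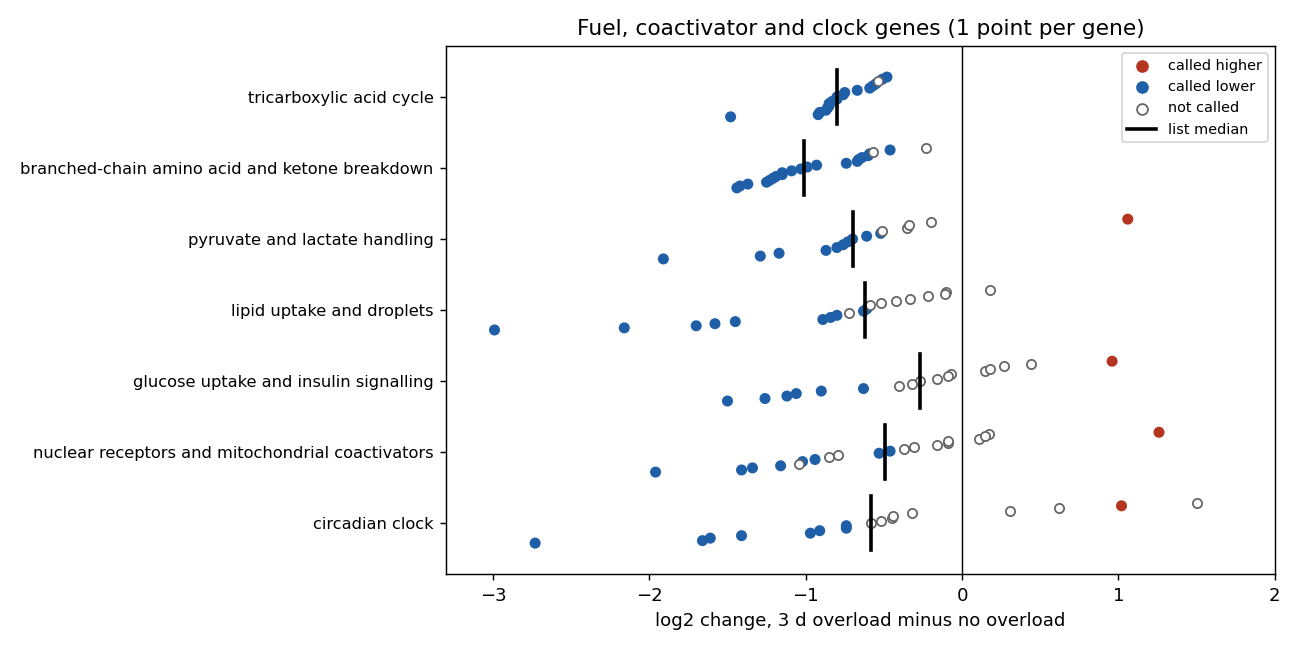
Change of each gene (log2, 3 d overload minus no overload, horizontal axis) in 7 lists of fuel use, nuclear receptors and the circadian clock, 1 point per gene, filled where called and open where not, with the list median as a black bar. All medians lie below 0, from -1.01 for branched-chain amino acid breakdown to -0.27 for glucose uptake.

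Genes of fuel burning were mostly lower. Of 19 measured genes of the tricarboxylic acid cycle, 0 were higher and 18 lower (0 and 12 of them kept), against 8.18% of all genes lower, and the median was -0.80. Idh2, the mitochondrial isocitrate dehydrogenase that makes NADPH, was at 8.34 and 8.21 in the 3 d overload pools, against 9.72 and 9.78 in the pools without overload. The groups were apart by -1.48 ± 0.15 (adjusted p = 0.000545). Suclg1 (-0.92), Idh3a (-0.91) and Ogdh (-0.87), enzymes of later and neighbouring steps, were each lower by a little under a unit. Breakdown of branched-chain amino acids and ketones had the lowest median of all 58 lists, -1.01, with 0 of 22 genes higher and 20 lower (0 and 12 of them kept). Bckdha, a subunit of the dehydrogenase that commits the amino acids to breakdown, was at 6.16 and 6.29 in the 3 d overload pools, against 7.42 and 7.77 in the pools without overload. Its phosphatase Ppm1k fell by 1.25, the isovaleryl-CoA dehydrogenase Ivd fell by 1.23 and Aldh6a1, of valine breakdown, fell by 1.42.

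Of 15 genes of pyruvate and lactate handling, 1 was higher and 10 lower (1 and 4 of them kept). Lactate dehydrogenase B (Ldhb), the form of oxidative tissue, was at 6.78 and 6.35 in the 3 d overload pools, against 8.26 and 8.69 in the pools without overload. Both overloaded pools were low, a change of -1.91. Pdpr and Pdp1, subunits of the phosphatase that switches pyruvate dehydrogenase on, had changes of -1.29 and -1.17. Of the kinases that switch it off, Pdk2 fell by 0.80 and Pdk3 rose by 1.06. Of 20 genes of lipid uptake and droplets, 0 were higher and 11 lower (0 and 7 of them kept). Besides Plin5, falls were seen in the fatty acid transporter Slc27a1 (-2.16), the triglyceride synthase Dgat2 (-1.70) and lipoprotein lipase Lpl (-1.58; its second probe set gave -0.73). Slc27a1 was at 4.97 and 5.07 in the 3 d overload pools, against 7.06 and 7.30 in the pools without overload. In glucose uptake and insulin signalling, 1 of 17 genes was higher and 6 lower (1 and 3 of them kept). The insulin-responsive transporter Slc2a4 fell by 1.12, Tbc1d4, which holds it inside the cell, fell by 1.5 and glycogen synthase Gys1 fell by 0.90. The basal transporter Slc2a1 rose by 0.96, but its second probe set gave -0.02.

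Regulators of oxidative genes were also mostly lower where they were called. Of 20 nuclear receptors and coactivators, 1 was higher and 8 lower (0 and 5 of them kept). Perm1, a muscle regulator of mitochondrial genes, was at 6.49 and 7.04 in the 3 d overload pools, against 8.60 and 8.85 in the pools without overload. The retinoid receptor Rxrg fell by 1.41 and the thyroid hormone receptor Thrb fell by 1.02. Of 23 genes of mitochondrial import, chaperones and dynamics, 0 were higher and 4 lower (0 and 2 of them kept), the kept falls including both mitofusins, Mfn2 (-1.07) and Mfn1 (-1.02), which fuse outer membranes. Of 35 mitochondrial ribosomal proteins, 0 were higher and 5 lower (0 and 0 of them kept), and 13 were called lower with arrays at a common median.

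The circadian clock list had 1 of 17 genes higher and 8 lower (0 and 4 of them kept), with a median of -0.58. Ciart was at 3.54 and 4.30 in the 3 d overload pools, against 6.73 and 6.57 in the pools without overload. The output factor Dbp was at 7.11 and 7.86 in the 3 d overload pools, against 9.06 and 9.22 in the pools without overload. Per3, a period gene, was at 5.21 and 5.77 in the 3 d overload pools, against 6.84 and 6.96 in the pools without overload. All 3 had both overloaded pools below both others, with changes of -2.73 ± 0.29 for Ciart, -1.66 ± 0.24 for Dbp and -1.41 ± 0.25 for Per3. Tef, a relative of Dbp, fell by 0.97. Arntl, the activator partner of Clock, was higher by 1.02 (named after its value was seen), with adjusted p = 0.114 without 3 d overload pool 1, 0.0964 without no-overload pool 1 and 0.0688 without no-overload pool 2. The labels do not give the hour at which muscles were taken, so a difference in hour and a difference in load cannot be told apart for these genes. The promoters of Ciart and Per3 are shown because their matches to clock motifs were multiple. Capitals mark the E-box CACGTG, which Clock and Arntl bind, in Ciart (GRCm38.p6, minus strand, chr3:95882179-95882478) and the D-box TTATGNAA, which Dbp, Tef and Hlf bind, in Per3 (minus strand, chr4:151044616-151044915).
Ciart: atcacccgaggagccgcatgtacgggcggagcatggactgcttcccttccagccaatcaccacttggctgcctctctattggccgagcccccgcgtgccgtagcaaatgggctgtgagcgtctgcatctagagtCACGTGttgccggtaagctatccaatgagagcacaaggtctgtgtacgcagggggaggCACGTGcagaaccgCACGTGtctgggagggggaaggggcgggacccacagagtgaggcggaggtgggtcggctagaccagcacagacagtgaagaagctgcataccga
Per3: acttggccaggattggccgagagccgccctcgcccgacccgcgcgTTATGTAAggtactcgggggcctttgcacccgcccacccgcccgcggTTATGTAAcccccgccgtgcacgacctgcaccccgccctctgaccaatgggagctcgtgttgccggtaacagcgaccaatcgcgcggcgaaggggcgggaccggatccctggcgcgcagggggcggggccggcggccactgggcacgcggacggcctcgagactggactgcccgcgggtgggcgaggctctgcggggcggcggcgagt
Ciart held 3 copies of the E-box and Per3 held 2 copies of the D-box, sought on both strands. Of 15 clock genes with a promoter, 5 held the E-box (33.3%), against 9.19% of 16990 promoters, and 2 held the D-box (13.3%), against 3.72%. The clock promoters with an E-box included genes called lower (Ciart, Tef, Bhlhe41) and genes that were not called (Per1 at -0.45, Cry1 at -0.52).

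Genes that make building blocks moved in both directions. In serine, one-carbon and ATF4 target genes, 5 of 20 genes were higher and 4 lower (3 and 2 of them kept), with a median of 0.13 that turned to -0.06 at a common array median. Besides Psat1, asparagine synthetase (Asns) was at 5.17 and 4.92 in the 3 d overload pools, against 3.74 and 3.93 in the pools without overload. Aldh18a1, of proline synthesis, rose by 1.41. Chac1, which breaks down glutathione, was at 3.64 and 3.99 in the 3 d overload pools, against 6.43 and 6.0 in the pools without overload. Cth, of cysteine synthesis, fell by 1.67. Asns and Chac1, both known targets of the transcription factor ATF4, thus moved in opposite directions, with changes of 1.21 ± 0.17 and -2.40 ± 0.30. Their promoters are shown for that reason, with the core of the amino acid response element, TGATGNAA on either strand, in capitals (GRCm38.p6, Asns on the minus strand at chr6:7693160-7693459, Chac1 on the plus strand at chr2:119350992-119351291).
Asns: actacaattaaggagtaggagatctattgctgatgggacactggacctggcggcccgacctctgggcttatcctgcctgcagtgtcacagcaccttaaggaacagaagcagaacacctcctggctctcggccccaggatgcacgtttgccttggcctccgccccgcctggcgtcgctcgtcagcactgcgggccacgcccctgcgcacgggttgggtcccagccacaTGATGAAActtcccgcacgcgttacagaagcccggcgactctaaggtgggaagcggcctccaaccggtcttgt
Chac1: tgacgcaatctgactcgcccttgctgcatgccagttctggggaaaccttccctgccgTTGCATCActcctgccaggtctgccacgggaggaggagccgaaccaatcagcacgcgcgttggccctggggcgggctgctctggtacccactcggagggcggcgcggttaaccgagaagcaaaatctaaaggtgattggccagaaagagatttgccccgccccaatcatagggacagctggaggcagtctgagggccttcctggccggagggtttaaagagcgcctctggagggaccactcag
Each held 1 copy. The element was found in 4 of 18 promoters of that list (22.2%), against 3.92% of 16990, and the 4 were Asns (higher), Chac1 (lower), Slc7a11 (0.22, not called) and Trib3 (-0.13, not called).

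In polyamine and arginine metabolism, 4 of 14 genes were higher and 2 lower (4 and 1 of them kept). Spermidine synthase (Srm) rose by 1.29, the antizyme inhibitor Azin1 by 1.22, the spermidine acetyltransferase Sat1 by 1.18 and arginase Arg1, also a macrophage enzyme, by 1.68, against the fall of Smox. Among 18 genes of purine and pyrimidine synthesis, 4 were higher and 2 lower (3 and 0 of them kept). This list, at a common array median, had 3 genes higher and 4 lower. The uridine kinase Uck2 was at 9.99 and 9.95 in the 3 d overload pools, against 7.65 and 7.67 in the pools without overload, a rise of 2.31 (second probe set 3.40), and Hprt, of purine salvage, rose by 1.0 and Ctps, of CTP synthesis, by 0.87. Amino acid transporters had 6 of 19 genes higher and 2 lower (3 and 1 of them kept). Set to a common median, the arrays gave 4 genes higher and 5 lower. The glutamine carriers Slc38a1 and Slc38a2 rose by 2.13 and 0.69, Slc7a7, a cationic amino acid exchanger that macrophages also express, by 1.96, and Slc15a5, a relative of peptide transporters, fell by 2.31.

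In the lipid-building lists, single enzymes rose beside others that fell. In cholesterol synthesis, 4 of 18 genes were higher and 3 lower (4 and 0 of them kept). Squalene epoxidase (Sqle) was at 5.09 and 4.92 in the 3 d overload pools, against 2.95 and 2.41 in the pools without overload. It rose by 2.32, Cyp51 by 2.25, Msmo1 by 0.93 and Srebf2, the regulator of the pathway, by 1.11. Fatty acid synthesis and desaturation had 7 of 20 genes higher and 4 lower (4 and 2 of them kept). At a common array median the list had 7 genes higher and 7 lower. The elongase Elovl6 rose by 1.69, the desaturases Fads2 and Fads1 by 1.62 and 1.41 and the citrate lyase Acly by 1.28, while Acacb, the carboxylase that restrains fatty acid burning, and the acyltransferase Gpam had changes of -1.02 and -1.02. Of 7 pentose phosphate genes, 2 were higher and 1 lower (2 and 0 of them kept), Pgd rising by 1.20 and Taldo1 by 0.89. Of 19 genes of nucleotide sugars, 3 were higher and 0 lower (2 and 0 of them kept). Ugdh, which makes the glucuronic acid donor of hyaluronan and proteoglycans, rose by 1.42 and the next enzyme, Uxs1, by 0.95. In energy buffering, 4 of 15 genes were higher and 4 lower (1 and 2 of them kept), or 4 and 6 at a common array median. Brain-type creatine kinase Ckb rose by 1.42, whereas the muscle adenylosuccinate synthase Adssl1 fell by 0.91 and the muscle adenine nucleotide carrier Slc25a4 fell by 0.84.

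Calls in the core machinery of protein synthesis and breakdown lay near the share of all genes or somewhat above it. Of 18 aminoacyl-tRNA synthetases, 1 was higher and 1 lower (0 and 1 of them kept), the kept fall being that of Mars1 (-0.71). Of 21 translation factors, 4 were higher and 2 lower (3 and 1 of them kept). Eef1a1, the elongation factor of most tissues, was at 11.21 and 11.08 in the 3 d overload pools, against 9.96 and 10.04 in the pools without overload, a rise of 1.15. Eif1a rose by 1.18 and Eef1e1 by 0.87, and Eef2k, the kinase that slows elongation, fell by 0.86. Of 34 proteasome subunits, 4 were higher and 1 lower (1 and 0 of them kept), with Psmd14 up by 0.71. The sign of the median turned at a common array median in each of these lists. It went from 0.07 to -0.12 for synthetases, 0.16 to -0.03 for translation factors and 0.14 to -0.05 for proteasome subunits.

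Among folding proteins the calls were all rises. Of 25 chaperonin subunits and cytosolic heat shock proteins, 13 were higher and 0 lower (6 and 0 of them kept), and at a common array median 7 were called higher. The small heat shock protein Hspb1 was at 9.29 and 9.16 in the 3 d overload pools, against 6.83 and 6.91 in the pools without overload. Its rise was 2.36 ± 0.17. Hspb3, another small heat shock protein of muscle, rose by 1.53. Hspa1b rose by 2.69 and Hspa1a by 1.52, but they are near-identical copies that the probes may not tell apart. In the secretory path, 8 of 28 genes were higher and 2 lower (3 and 1 of them kept). The retrieval receptor Kdelr3 rose by 2.15, the coat protein Sec24d by 1.67 and the translocon channel Sec61a1 by 1.33, while Sar1b, a coat GTPase, fell by 0.71. Among 24 lysosomal genes, 11 were higher and 3 lower (6 and 0 of them kept). Cathepsin S (Ctss) was at 9.54 and 9.11 in the 3 d overload pools, against 5.57 and 5.71 in the pools without overload, and legumain (Lgmn), cathepsin H (Ctsh) and progranulin (Grn) rose by 2.16, 1.86 and 1.60. Macrophages are rich in these proteases, and their part was not tested.

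Among antioxidant genes and metallothioneins, 10 of 27 genes were higher and 5 lower (5 and 4 of them kept). At a common array median they had 9 genes higher and 9 lower. Haem oxygenase (Hmox1), which breaks down haem, was at 8.14 and 7.15 in the 3 d overload pools, against 4.40 and 4.88 in the pools without overload, a rise of 3.0. Metallothionein Mt1 rose by 1.91 and sulfiredoxin Srxn1 by 1.20. The mitochondrial antioxidants Sod2 (-0.84) and Prdx3 (-0.74) fell, as did Gstm1 (-1.01) and Txnip (-0.93), a thioredoxin-binding protein that also limits glucose uptake. Zinc transporters had 4 of 15 genes higher and 2 lower (2 and 1 of them kept). The importers Slc39a6 and Slc39a8 rose by 1.77 and 1.73, and Slc30a2, which loads zinc into vesicles, was at 1.78 and 2.61 in the 3 d overload pools, against 4.79 and 3.99 in the pools without overload. In iron and haem handling, 4 of 19 genes were higher and 2 lower (2 and 1 of them kept). The haemoglobin scavenger receptor Cd163 (1.58) and the phagosomal metal exporter Slc11a1 (2.51), both macrophage genes, rose, and the iron exporter ferroportin (Slc40a1) fell by 1.49. Of 23 genes of cell death and p53 targets, 8 were higher and 2 lower (3 and 0 of them kept), with rises in the receptor Eda2r (1.57) and the caspases Casp8 (1.49) and Casp1 (1.28). Their list median was 0.03, close to that of all genes.

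Signalling lists were divided. In the Hippo pathway, which senses tension, 8 of 19 genes were higher and 1 lower (5 and 0 of them kept), and 5 were higher at a common array median. Its target Ccn1 was at 8.98 and 8.40 in the 3 d overload pools, against 6.61 and 7.03 in the pools without overload. Ccn1 rose by 1.87, the cofactor Vgll3 by 1.61, the transcription factor Tead4 by 0.88 and Ccn2 by 1.65, whose second probe set gave 0.36. In the Wnt pathway, 4 of 29 genes were higher and 4 lower (2 and 2 of them kept). At a common array median it had 3 genes higher and 9 lower. The secreted antagonists Sfrp2 and Sfrp4 rose by 2.43 and 1.42 (a second probe set of Sfrp2 gave 0.5), and the ligand Wnt4 and the receptor Fzd4 had changes of -1.34 and -1.24. The Notch list had 4 of 18 genes higher and 2 lower (1 and 0 of them kept), with Notch2 up by 1.09. Its count was 2 higher and 3 lower at a common array median.

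In the interleukin-6 family, 5 of 18 genes were higher and 4 lower (4 and 2 of them kept). Il6 itself was at 2.83 and 3.11 in the 3 d overload pools, against 1.95 and 1.73 in the pools without overload. The oncostatin M receptor Osmr was at 7.95 and 7.97 in the 3 d overload pools, against 6.51 and 6.37 in the pools without overload. The leukaemia inhibitory factor receptor Lifr was at 7.52 and 7.65 in the 3 d overload pools, against 8.69 and 8.74 in the pools without overload. The changes were 1.52 ± 0.17 for Osmr and -1.13 ± 0.16 for Lifr, with the groups apart in both. Stat3, which these receptors activate, rose by 1.06, its feedback inhibitor Socs3 by 2.60 (second probe set 1.22), and the kinase Jak2 fell by 0.81. Of 21 TNF receptors and NF-kappaB genes, 7 were higher and 3 lower (3 and 0 of them kept). The receptor Tnfrsf12a, for the ligand TWEAK, was at 9.5 and 9.37 in the 3 d overload pools, against 6.48 and 6.76 in the pools without overload, a rise of 2.81. Nfkbiz and the subunit Rela rose by 1.57 and 0.82.

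Factors that muscle secretes had 4 of 21 genes higher and 4 lower (3 and 3 of them kept). The growth factor Hbegf was at 8.16 and 7.93 in the 3 d overload pools, against 5.04 and 4.88 in the pools without overload. Osteocrin (Ostn), which slows the clearance of natriuretic peptides, was at 4.79 and 5.07 in the 3 d overload pools, against 7.65 and 7.10 in the pools without overload. The groups were apart in both, with changes of 3.09 and -2.45. Follistatin-like Fstl1 and meteorin-like Metrnl rose by 1.85 and 1.10, and interleukin-15 (Il15) and the irisin precursor Fndc5 had changes of -1.52 and -1.5. The list of purine receptors had 5 of 16 genes higher and 3 lower (5 and 1 of them kept). P2ry6, P2rx4, P2rx7 and P2ry12, known from macrophages and microglia, rose by 2.15, 1.53, 1.49 and 1.37, and P2rx6, a subunit found in muscle, fell by 1.39. In adrenergic and cAMP signalling, 2 of 15 genes were higher and 3 lower (0 and 2 of them kept), with falls in the cyclase Adcy9 (-1.01) and the phosphodiesterase Pde7a (-0.98, with -0.20 in its second probe set). Guidance cues had 3 of 27 genes higher and 0 lower (1 and 0 of them kept), with Sema3b up by 0.94. Of 15 neurotrophic factors and nerve injury genes 1 was higher and 1 lower (1 and 0 of them kept), the kept rise being Sprr1a. The calls of both these lists lay near or below the shares of all genes, 9.31% higher and 8.18% lower. With arrays at a common median, guidance cues had 1 gene higher and 2 lower, and adrenergic and cAMP signalling 2 higher and 5 lower.

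In the defence lists other than that of the interferon-inducible GTPases, more genes were called higher than lower, beside macrophage markers of which all 10 were higher, and the part of the macrophage rise in them was not tested. Among 19 genes of the phagocyte oxidase and phagocyte signalling, 18 were higher and 0 lower (18 and 0 of them kept), with the highest median of the 58 lists, 2.26. The Fc receptor gamma chain Fcer1g rose by 3.37, the leukocyte phosphatase Ptprc by 3.12, the adaptor Lcp2 by 3.04 and the lipid receptor Trem2 by 2.96. Among 22 innate sensors, 18 were higher and 0 lower (10 and 0 of them kept). Tlr13, which reads bacterial ribosomal RNA in mice, was at 5.92 and 5.33 in the 3 d overload pools, against 2.31 and 2.27 in the pools without overload. The RNA sensors Tlr8 and Tlr7 rose by 3.10 and 2.58 and the beta-glucan receptor Clec7a by 2.27. Complement had 8 of 17 genes higher and 1 lower (8 and 0 of them kept). C3ar1, the receptor for a complement fragment, was at 7.77 and 7.72 in the 3 d overload pools, against 3.93 and 3.92 in the pools without overload, and the chains of the first component, C1qb, C1qa and C1qc, rose by 3.23, 2.74 and 2.03.

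Serpins and clotting genes had 9 of 18 genes higher and 0 lower (8 and 0 of them kept). Serpinb1a, an inhibitor of neutrophil elastase, was at 7.5 and 7.86 in the 3 d overload pools, against 3.63 and 3.45 in the pools without overload. Serpina3n, which inhibits granzyme B and cathepsin G, was at 8.95 and 8.81 in the 3 d overload pools, against 4.91 and 5.28 in the pools without overload. The groups were apart in both genes. Serpinb8 rose by 2.53 and the fibrin crosslinker F13a1 by 2.42. Lipid mediator genes had 9 of 22 genes higher and 1 lower (5 and 0 of them kept). The prostaglandin D synthase Hpgds rose by 2.44 and the thromboxane synthase Tbxas1 by 1.91. Alox5ap and Alox5, of leukotriene synthesis, rose by 2.65 and 2.12, while their second probe sets gave 0.16 and 0.32. In antigen presentation, 5 of 15 genes were higher and 0 lower (4 and 0 of them kept), the class II genes H2-Ab1, H2-Eb1 and H2-Aa rising by 1.84, 1.79 and 1.42 and the peptide transporter Tap1 by 0.86. Class II genes are near copies of each other. The interferon-inducible GTPases stood apart from these, with 0 of 14 genes higher and 2 lower (0 and 1 of them kept) and a median of -0.17.

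MicroRNAs are short RNAs that bind messenger RNAs through their seed, bases 2 to 8, and lower their output. The array reads their gene loci and precursors, not the mature RNA alone. The genes that follow were named after their values were seen. Mature sequences are given for some of them (RefSeq, GRCm38.p6), with the seed in capitals, because the seed shows which of them could share targets.
miR-493-3p: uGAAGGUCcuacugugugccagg
miR-493-5p: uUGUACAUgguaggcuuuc
miR-453: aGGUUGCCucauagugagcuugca
miR-329-3p: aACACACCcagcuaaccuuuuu
miR-362-3p: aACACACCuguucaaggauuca
miR-133b-3p: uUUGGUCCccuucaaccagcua
miR-511-3p: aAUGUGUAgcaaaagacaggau
miR-3095-3p: uGGACACUggagagagagcuuuu
miR-181a-5p: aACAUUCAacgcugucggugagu
miR-181b-5p: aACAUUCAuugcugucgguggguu
miR-1a-1-5p: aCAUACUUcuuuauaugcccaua
miR-677-3p: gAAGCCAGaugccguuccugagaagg
Among the sequences printed, the seed ACAUUCA is shared by miR-181a-5p and miR-181b-5p, both from genes with lower values. ACACACC is shared by miR-329-3p and miR-362-3p, both from genes with higher values whose calls were not kept. Mir362 was higher by 0.94, at 2.16 and 2.42 with 3 d overload, against 1.35 and 1.36 without, near the bottom of the scale. Mature sequences of Mir133a-2 and Mir143 were not among those compared, so seeds that they share with others are not covered. That leaves out any seed shared by Mir133a-2 and Mir133b, which changed in opposite directions (-1.07 and 1.66). Of Mir1a-1, only miR-1a-1-5p was among the sequences compared, so the seed of any other mature sequence of that gene is not covered. Whether a shared seed goes with a shared direction was not tested.

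Of 478 microRNA genes measured, 18 were higher and 12 lower (6.28% called, against 17.5% of all genes). Most lay near the bottom of the scale, with group means of 2.06 and 2.03 log2 units. The imprinted locus between Dlk1 and Dio3 on chromosome 12 (109452485 to 110281097, GRCm38.p6) holds a large cluster of microRNAs and the noncoding host transcripts Meg3, Rian and Mirg. Of its 41 measured microRNA genes 6 were higher and 0 lower (14.6%), with a median change of 0.40. Of the 437 others 12 were higher and 12 lower (5.49%), with a median of -0.03. Mir493 was at 5.10 and 5.66 in the 3 d overload pools, against 2.07 and 2.04 in the pools without overload, a rise of 3.33 ± 0.41 (adjusted p = 0.00104). Mir453 was at 5.71 and 5.88 in the 3 d overload pools, against 3.72 and 2.67 in the pools without overload, a rise of 2.60 ± 0.36. Both had the groups apart and kept their calls. Rian, a noncoding transcript of the same locus, rose by 2.75 ± 0.39 (adjusted p = 0.00192). It was at 6.47 and 6.81 in the 3 d overload pools, against 3.59 and 4.18 in the pools without overload. Whether the called microRNA genes lie within Rian was not examined. The difference was 0.07 in Meg3 and -0.05 in Dlk1, neither of them called. Both lay near the bottom of the scale, where a change can be missed. Meg3 was at 2.11 and 2.27 with 3 d overload, against 2.32 and 1.93 without. Dlk1 was at 2.12 and 1.51 with 3 d overload, against 2.16 and 1.58 without.

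The other 4 calls of the cluster were not kept. Mir329 was higher by 1.83, with adjusted p = 0.0913 without 3 d overload pool 2 and 0.0932 without no-overload pool 2. Mir667 was higher by 1.41, with adjusted p = 0.0782 without 3 d overload pool 1, 0.147 without 3 d overload pool 2, 0.0693 without no-overload pool 1 and 0.137 without no-overload pool 2. Mir673 was higher by 1.06, with adjusted p = 0.126 without 3 d overload pool 2, 0.0914 without no-overload pool 1 and 0.0757 without no-overload pool 2. Mir1193 was higher by 1.17, with adjusted p = 0.15 without 3 d overload pool 1, 0.0762 without 3 d overload pool 2 and 0.159 without no-overload pool 2. In all 4 the pools of the groups did not overlap.

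**Figure D5:**
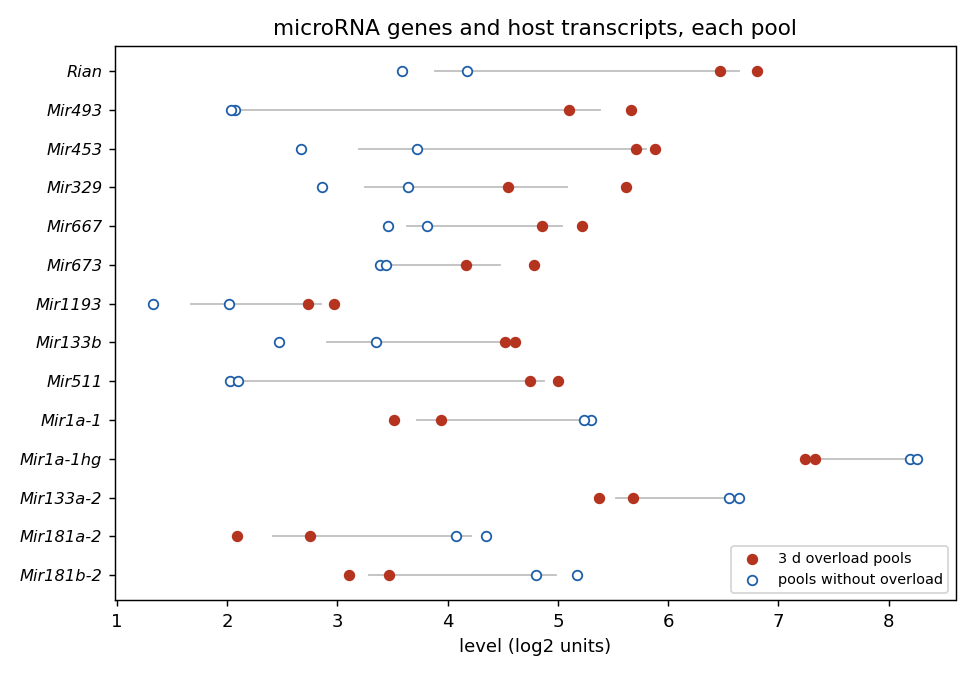
Level in each pool (log2 units, horizontal axis) of microRNA genes and the noncoding transcripts Rian and Mir1a-1hg. Filled points are the 2 pools of 3 d overload and open points the 2 pools without overload, with grey lines between group means. The genes of the Dlk1 to Dio3 locus (Rian to Mir1193), Mir133b and Mir511 lie higher in the overloaded pools and the others lower.

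MicroRNA genes known from muscle were called in both directions or not called. Mir1a-1, of the miR-1 family that is abundant in muscle, was at 3.94 and 3.51 in the 3 d overload pools, against 5.30 and 5.24 in the pools without overload. Its host transcript Mir1a-1hg, whose locus also holds a miR-133 gene, was at 7.24 and 7.33 in the 3 d overload pools, against 8.19 and 8.26 in the pools without overload. Mir133a-2 was at 5.37 and 5.68 in the 3 d overload pools, against 6.64 and 6.55 in the pools without overload. All 3 were lower in both overloaded pools, with changes of -1.54 in Mir1a-1, -0.94 in Mir1a-1hg and -1.07 in Mir133a-2, whose adjusted p was 0.0637 without 3 d overload pool 1. Mir133b, which lies on another chromosome, was at 4.52 and 4.61 in the 3 d overload pools, against 3.35 and 2.47 in the pools without overload, a rise of 1.66 ± 0.29. Mir181b-2 fell by 1.70. Its neighbour Mir181a-2 was lower by 1.80, with adjusted p = 0.0603 without 3 d overload pool 1. Mir511, which lies in the gene of the macrophage mannose receptor Mrc1, was at 4.75 and 5.0 in the 3 d overload pools, against 2.03 and 2.10 in the pools without overload, beside a rise of 3.12 in Mrc1 itself. Mir3095 rose by 2.86, and Mir677 and Mir143 had changes of -1.07 and -1.21. Of other microRNA genes known from muscle, Mir133a-1 had a change of -0.40, Mir206 of -0.27, Mir208b of -0.21 and Mir499 of -0.04, none of them called. The last 3 lay at the bottom of the scale, so a change in them can be missed. Their means with 3 d overload and without were 0.29 and 0.55 in Mir206, 1.04 and 1.25 in Mir208b, and 0.70 and 0.74 in Mir499.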

How the data were processed

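RNA of 4 plantaris muscles was pooled per array, and 2 pools were measured in each of 5 groups. Qiazol was the extraction reagent per the labels' protocols, and both the GeneChip WT PLUS kit and the NuGEN PicoSL kit are named, so which amplification was used is not settled. The deposited values are log2 expression, which the authors made with RMA and oligo per the submitters' processing notes, with limma also named. Neither versions nor a genome build were found in those notes. The table holds 41345 probe sets, with values between -0.45 and 12.71. Of them 23521 were paired with 1 gene symbol, 1814 with several and 16010 were not listed in the platform annotation. The brightest probe set stood for each of the 1082 genes with several, which left 22180 genes and no filter on dim ones.

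limma 3.58.1 in R 4.3.3 was fitted to all 10 arrays with 1 coefficient per group and empirical Bayes (5 residual degrees of freedom, 3.58 prior, prior SD 0.18), and p-values were adjusted over all genes by the Benjamini-Hochberg method. In 20 simulations with 200 changed genes each, the same fit recovered 4.29% of changes of 1.5-fold, 53.4% of those of 2-fold and 97.4% of those of 4-fold, with 4.95% false calls. The simulated noise was normal and independent between genes, and far fewer genes changed than the 3881 called in the data. These shares therefore may not describe this comparison. Precision is limited by the 2 arrays per group. Genes were named by rule from those whose call was kept, with a change within 1.5 times of the full fit and no overlap of the groups, when each array was left out: the 12 largest rises and falls outside the cell division, macrophage and matrix lists, and up to 4 each way per gene list with at least 2 calls, 235 genes in all. The comparison, the 58 gene lists and the marker lists were chosen with earlier results of these data known. Sequences are from RefSeq. The alternatives tried were the 4 arrays alone, a common array median, leaving out dim genes, the mean of probe sets, a trended robust prior, array weights and leaving out each array.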

Additional observations from a re-analysis of the deposited data

Results flagged for a closer look

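Of the 24 leading genes, 19 differed between 10 d and 3 d of overload without inhibitor in the same fit (adjusted p under 0.05), a comparison with 1348 of 22180 genes called (6.08%). It shares the 3 d overload pools with the comparison of the report. The leading genes were picked for extreme values in those pools. A 10 d level nearer to that without overload was thus favoured in advance. Among the 12 leading rises, 9 were lower at 10 d than at 3 d. The difference, 10 d minus 3 d, was -5.58 ± 0.33 log2 units in Sprr1a, -3.0 ± 0.56 in Cgref1 and -2.52 ± 0.27 in Atf3. Sprr1a was at 1.57 and 2.71 in the 10 d pools, against 7.53 and 7.91 in the 3 d pools and 0.73 and 0.79 in the pools without overload, so that both 10 d pools lay between the groups. The same difference was -2.49 ± 0.22 for Psat1, -2.05 ± 0.35 for Igsf6, -1.89 ± 0.19 for Mt2, -1.41 ± 0.27 for Ankrd1, -1.37 ± 0.20 for Serpinb1a and -1.27 ± 0.29 for Gpr65.

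Of the 12 leading falls, 10 were higher at 10 d than at 3 d. Ky was at 8.12 and 8.0 in the 10 d pools, against 4.69 and 5.59 at 3 d and 8.04 and 8.15 without overload, a difference between 10 d and 3 d of 2.92 ± 0.31. Klhl33 differed by 2.81 ± 0.26, Snai3 by 2.75 ± 0.30, Gbp10 by 2.36 ± 0.32, Lrrc38 by 2.23 ± 0.31, Gdap1 by 1.88 ± 0.15, Odf3l2 by 1.87 ± 0.37 and Smox by 1.80 ± 0.15. The smallest of these differences were in Ciart (1.29 ± 0.29) and Inmt (1.11 ± 0.17). The cause of these differences was not tested.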

How the results depend on the processing

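No paired analysis was possible because the labels give the pools no numbers that link them across groups. The 235 genes named by rule were chosen for calls kept without each array, so the settings that leave out an array (235 each time) say nothing of their stability. Under the other alternatives they kept their direction and their call, except that Sox4 (0.61) and Pde7a (-0.59) were no longer called with the mean of probe sets. Genes called lower numbered 3295 with arrays at a common median, against 1815 in the full fit. For 10 d against 3 d of overload, where the full fit called 1348 genes, 202 were called from the 4 arrays alone, 2268 without dim genes and 2458 with a trended robust prior. Leaving out single arrays gave 2146 to 3850 genes changed, 1239 to 2069 higher and 907 to 1781 lower at 3 d, 351 to 549 called genes in the lists and 218 to 1096 genes for 10 d against 3 d. The lowest counts were those without 3 d overload pool 1, which held the granulocyte precursor genes. Fewer arrays leave fewer degrees of freedom. Depth does not apply to arrays, and genes near the bottom of the scale, most microRNA genes among them, are limited by their signal.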
